A study of Mus musculus with 11 samples.

Results

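miR-99a, miR-99b, miR-100, miR-125a and miR-125b are the miRNAs that share primary transcripts with let-7 genes. Their rows were taken by name, any hairpin copy and either arm, from the miRNA table of mES cells with and without Trim71. The table lists 592 miRNAs, of which 8 were members. These were the 5p arms miR-99a-5p, miR-99b-5p, miR-100-5p, miR-125a-5p and miR-125b-5p and the 3p arms miR-99b-3p, miR-125a-3p and miR-125b-1-3p. The cells were male C57BL/6 mES cells homozygous for a floxed Trim71 allele, derived from mice that also carried CreERT2 in the broadly transcribed Rosa26 locus. Trimfl/fl was the undeleted state, which received the vehicle DMSO according to the study's methods. In Trim-/- cells, written Trim71-/- here as Trim71fl/fl is for the former, 500 nM 4-hydroxytamoxifen for 2 days had activated the Cre, and culture then went on for at least 7 days. These figures are those of the sample labels, and the study's methods describe a lower dose and a shorter culture. Small RNA was measured in 11 libraries, 5 of Trim71-/- and 6 of Trim71fl/fl cells, from 2 clones. Days 1, 5 and 6 gave 1 library of each genotype from clone 1, and days 3 and 4 gave the same from clone E3. Day 2 held a Trim71fl/fl library of clone E3 without a partner, so that 10 libraries in 5 same-day pairs were compared. All cells had been sorted for SSEA-1, a surface marker of undifferentiated mES cells.

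Trim71, the mammalian LIN-41, is an RNA-binding protein of early embryonic cells and a known target of let-7, whose mature forms are held low in mES cells by Lin28. miR-125 is the vertebrate relative of lin-4, the worm miRNA that acts beside let-7 in developmental timing, and it is known to target Lin28 and Trim71 transcripts. miR-99 and miR-100 form an old family best known for repressing Mtor and the insulin-like growth factor receptor. A cell that transcribes such a locus makes a miR-99/100, a let-7 and a miR-125 hairpin from the same primary RNA, and Lin28 acts on the let-7 hairpin after transcription. The comparison of Trim71-/- with Trim71fl/fl cells therefore asks whether the partners of let-7 differ with it.

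The 3 loci were read from GENCODE M21 on GRCm38. On chromosome 17, Mir99b (chr17:17830188-17830257), Mirlet7e (chr17:17830352-17830444) and Mir125a (chr17:17830812-17830879) lie within 692 bases on the plus strand. Mir99b and Mirlet7e lie in introns of Spaca6, and Mir125a overlaps an exon of an annotated Spaca6 transcript. On chromosome 9, Mir100 (chr9:41531425-41531504), Mirlet7a-2 (chr9:41536716-41536811) and Mir125b-1 (chr9:41581926-41582002) span 50578 bases in introns of the non-coding genes 3110039I08Rik and Gm49317. On chromosome 16, Mir99a (chr16:77598936-77599000), Mirlet7c-1 (chr16:77599657-77599750) and Mir125b-2 (chr16:77646273-77646343) span 47408 bases in introns of Mir99ahg, the host gene of this cluster.

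The mature 5p sequences are shown because the members fall into families by seed, and because near-identical members could exchange reads. All are from RefSeq on GRCm38.p6, in which 8 of 8 members had an entry, and capitals mark the seed, bases 2 to 8 counted from the 5′ end.
miR-99a-5p: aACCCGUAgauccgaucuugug
miR-100-5p: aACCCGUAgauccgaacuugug
miR-99b-5p: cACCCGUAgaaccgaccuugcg
miR-10a-5p: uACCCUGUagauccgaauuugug
miR-10b-5p: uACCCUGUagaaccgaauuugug
miR-125a-5p: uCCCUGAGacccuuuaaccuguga
miR-125b-5p: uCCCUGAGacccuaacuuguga
miR-351-5p: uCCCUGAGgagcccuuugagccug
A sequence was matched for 463 of the 592 miRNAs of the table, and seeds were compared among these. The seed ACCCGUA was found in 3 of them, all of them members. miR-99a-5p and miR-100-5p differed at 1 position of the 22, U16A, with positions counted from 1 at the 5′ end. miR-99b-5p differed from miR-100-5p at 4 positions, A1C, U11A, A16C and U21C, of which none is in the seed. miR-10a-5p and miR-10b-5p, from the Hox clusters, have another seed but otherwise resemble this family, and miR-10a-5p could be turned into miR-100-5p by 3 single-base edits. Among the matched miRNAs, the seed CCCUGAG was found in miR-125a-5p, miR-125b-5p and the X-linked miR-351-5p. Of these, miR-125a-5p and miR-125b-5p were 3 edits apart. miR-125b-5p is made identically from Mir125b-1 and Mir125b-2, so its value joins the loci of chromosomes 9 and 16.

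The 3p arms carry other seeds, and each comes from a single hairpin.
miR-99b-3p: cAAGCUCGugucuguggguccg
miR-125a-3p: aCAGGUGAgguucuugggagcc
miR-125b-1-3p: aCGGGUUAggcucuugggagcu
let-7e-5p: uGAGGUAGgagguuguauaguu
let-7a-5p: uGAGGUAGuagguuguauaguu
let-7c-5p: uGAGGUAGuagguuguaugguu
The last 3 are the let-7 partners of the loci on chromosomes 17, 9 and 16. let-7a-5p and let-7e-5p differ by U9G and let-7c-5p and let-7a-5p by G19A. let-7a-5p and let-7c-5p also come from hairpins outside these loci, so that of the let-7 partners let-7e-5p alone stands for 1 locus.

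The values are read counts that the authors normalised with DESeq2, corrected for batch and raised to 1 where they were lower. The number of reads behind a library is unknown, and the summed values, 3751519 to 5551715 in Trim71-/- and 2742673 to 4332525 in Trim71fl/fl libraries, do not measure depth. For the members, and for 591 miRNAs of the 592, both libraries of a day added up to a total that did not vary between days (tolerance 0.1%, values at the floor left out). A high value in the Trim71-/- library of a day thus goes with an equally low value in its partner, and each pair gives 1 difference. For the same reason the SDs of the genotypes are nearly equal. Values before the floor were recovered as this total minus the partner. Of the 3 member values at the floor, all were those of the Trim71fl/fl library of day 5. No statement in the labels says that days were separate derivations, so that p-values measure the spread between these pairs of libraries. Fewer cells making a miRNA and less of it per cell cannot be told apart in such bulk libraries.

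The members were of very different abundance. Mature miRNAs are read whole, so that a read count stands for molecules without a correction for length, although ligation can favour some sequences. miR-99b-5p ranked 40 of 592 by its mean over the 10 libraries and miR-125a-5p 104, miR-99b-3p 141, miR-125b-5p 265, miR-100-5p 295, miR-99a-5p 366, miR-125a-3p 423 and miR-125b-1-3p 515. In Trim71-/- cells miR-99b-5p lay above miR-125a-5p in 5 of 5 libraries without overlap of their ranges. miR-125a-5p lay above miR-99b-3p in 4 of 5 and with overlap, and miR-125b-5p above miR-100-5p likewise in 4 of 5. In Trim71fl/fl cells this order of the means was the same, but miR-125b-5p exceeded miR-100-5p in 2 of 5 libraries, so these neighbours did not differ beyond their spread. The members from the locus on chromosome 17 held between 88.9% and 98.0% of the summed member values of a library. The lowest share was that of the Trim71fl/fl library of day 5, in which miR-99b-5p made up 7.89% of the members against 71.4% to 79.3% in the other paired Trim71fl/fl libraries. All members together made up 0.233% to 0.382% of the values of a Trim71-/- library and 0.101% to 0.351% of those of a Trim71fl/fl library.

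On 4 of 5 days the most abundant member, miR-99b-5p, was higher in Trim71-/- cells. In Trim71-/- cells its value was 10458, 10244, 5256, 17085 and 9741, in the order of days 1, 3, 4, 5 and 6. In Trim71fl/fl cells it was 6847, 7061, 12049, 220 and 7564 on the same days. Days 1, 3 and 6 lay close together, day 4 was opposite in direction, and the pair of day 5 was the widest. The groups overlapped, with means of 10557 ± 4228 (SD, n = 5) and 6748 ± 4228 (SD, n = 5). The log2 fold change of value + 1 was 1.32 (standard error 1.07, unadjusted p = 0.262, adjusted p = 0.645 from limma). It was 0.08 when day 5 was left out, so that this pair supplied most of the fitted difference. Without the reversed pair of day 4 it was 1.95.

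miR-100-5p, from chromosome 9, ran in parallel with miR-99b-5p, from chromosome 17. Its Trim71-/- values were 191, 177, 90.9, 316 and 168 on days 1, 3, 4, 5 and 6, and its Trim71fl/fl values were 90.8, 105, 191, 1 and 114. Again day 4 was the reversed pair and day 5 the widest, with the Trim71fl/fl value at the floor. Its mean was 188 ± 81.0 (SD, n = 5) with Trim71 deleted and 100.3 ± 67.7 (SD, n = 5) without deletion. The log2 fold change was 1.72 (standard error 1.19, unadjusted p = 0.199, adjusted p = 0.645 from limma), which became 0.32 when day 5 was left out. Without day 4 it was 2.42. A fold against a value at the floor depends on the added 1, and the ratio of the group means before the floor was 2.02.

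miR-99a-5p, which has the seed of these miRNAs and differs from miR-100-5p at 1 base, did not run with them. Its Trim71-/- values were 140, 110.5, 81.8, 97.8 and 65.2 and its Trim71fl/fl values 9.24, 39.0, 67.6, 51.7 and 84.2 on days 1, 3, 4, 5 and 6. On days 1, 3, 4 and 5 it was higher in Trim71-/- cells and on day 6 lower, and its widest pair was that of day 1. The means were 99.1 ± 28.6 (SD, n = 5) and 50.3 ± 28.6 (SD, n = 5), overlapping in range. The log2 fold change was 1.22 (standard error 0.62, unadjusted p = 0.0968, adjusted p = 0.607 from limma), which became 0.57 when day 1 was left out. Without day 6 it was 1.61.

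miR-125a-5p, the second most abundant member, had the smallest fitted change. Its Trim71-/- values were 2481, 2285, 2301, 1528 and 2025 and its Trim71fl/fl values 1282, 1478, 1463, 2235 and 1738 on days 1, 3, 4, 5 and 6. It was higher in Trim71-/- cells on days 1, 3, 4 and 6 and lower on day 5, the day on which its neighbour miR-99b-5p had its largest excess. The means were 2124 ± 371 (SD, n = 5) and 1639 ± 371 (SD, n = 5). The log2 fold change was 0.38 (standard error 0.30, unadjusted p = 0.257, adjusted p = 0.645 from limma), with 0.61 when day 5 was left out and 0.24 when day 1 was.

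miR-125b-5p had the same directions as miR-125a-5p on all 5 days. Its Trim71-/- values were 293, 266, 244, 112 and 199 and its Trim71fl/fl values 75.0, 102, 124, 256 and 169 on days 1, 3, 4, 5 and 6. The excess on days 1, 3 and 4 and the deficit on day 5 were larger in proportion than those of miR-125a-5p. The means were 223 ± 70.98 (SD, n = 5) and 145 ± 70.98 (SD, n = 5), with overlap. The log2 fold change was 0.67 (standard error 0.49, unadjusted p = 0.224, adjusted p = 0.645 from limma). Leaving out day 5 gave 1.13 with an unadjusted p of 0.0275 (adjusted p = 0.717) from limma, past the thresholds of the study, as were 5.07% of all miRNAs (30 of 592) without that day. Leaving out day 1 gave 0.35.

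**Figure D1:**
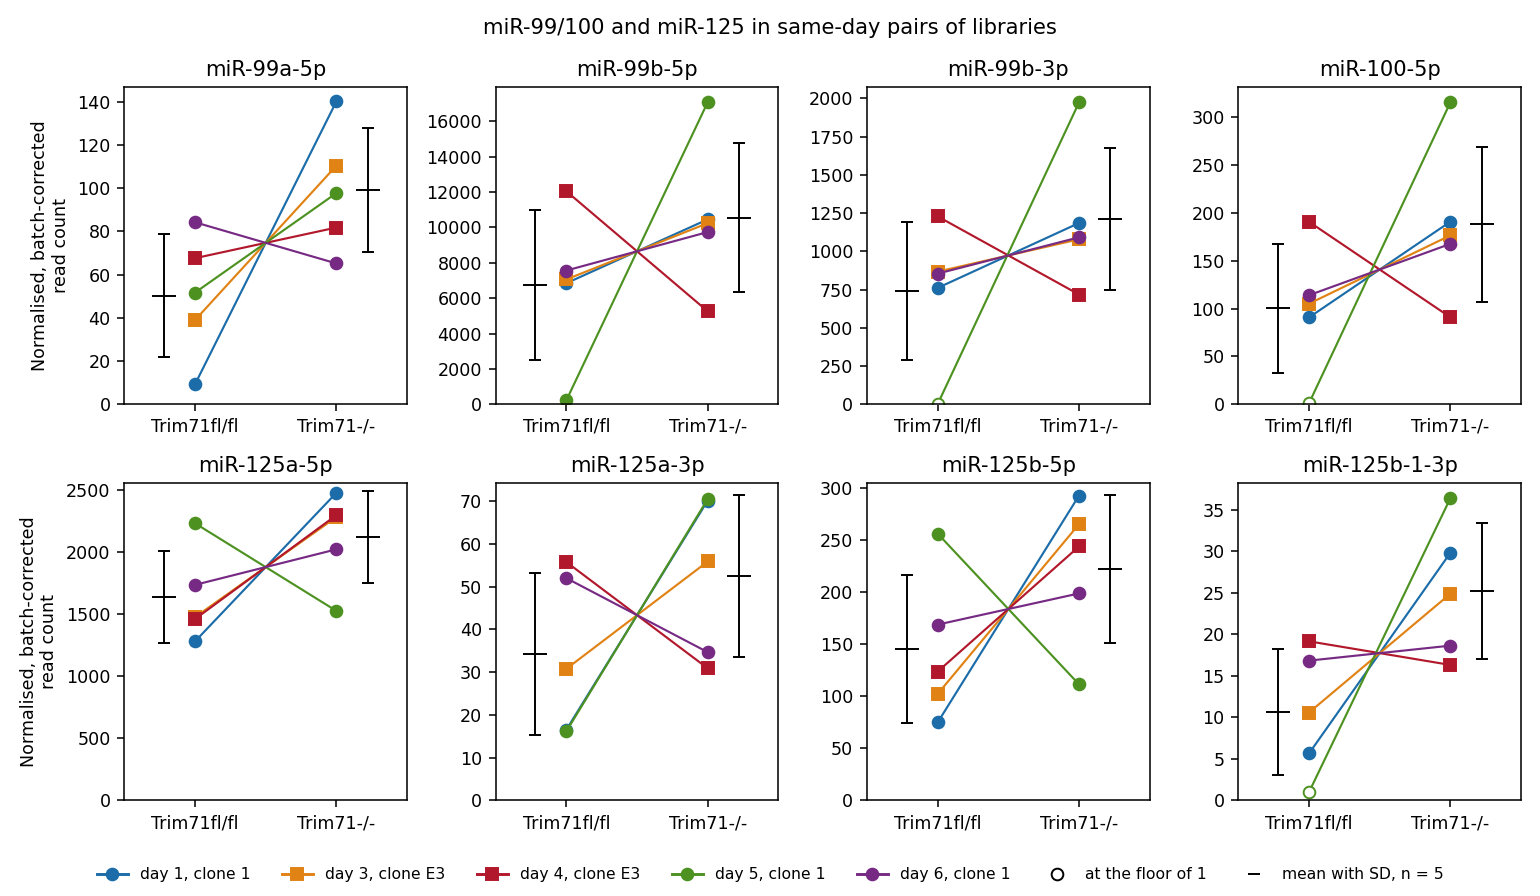
Normalised, batch-corrected read counts (vertical axes, linear, each from 0) of the 8 miRNAs in Trim71fl/fl (left) and Trim71-/- libraries (right), with a line joining the libraries of a day, circles for clone 1, squares for clone E3, open symbols for values at the floor of 1, and black bars for the mean with SD (n = 5). Lines of a panel cross in 1 point because same-day sums are constant, apart from the day 5 lines that end at the floor. The green line of day 5 is steepest for miR-99b-5p, miR-99b-3p, miR-100-5p and miR-125b-1-3p, and for miR-125a-3p by a narrow margin over day 1. It slopes the other way for miR-125a-5p and miR-125b-5p.

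The 3p arms are the strands that are usually loaded less. miR-99b-3p followed its 5p arm, with Trim71-/- values of 1185, 1079, 718, 1974 and 1092 and Trim71fl/fl values of 761, 867, 1229, 1 and 854 on days 1, 3, 4, 5 and 6. Its log2 fold change was 2.10 (standard error 1.62, unadjusted p = 0.243, adjusted p = 0.645 from limma) over 5 pairs and 0.13 without the pair of day 5. Without the pair of day 4 it was 2.81. The means were 1210 ± 463 (SD, n = 5) and 742 ± 451 (SD, n = 5), a ratio of 1.64 before the floor.

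miR-125a-3p did not follow its 5p arm. Its Trim71-/- values were 70.2, 55.9, 30.9, 70.5 and 34.7 and its Trim71fl/fl values 16.5, 30.8, 55.8, 16.2 and 52.0 on days 1, 3, 4, 5 and 6. It was lower in Trim71-/- cells on day 4, on which miR-125a-5p was higher, and higher on day 5, on which miR-125a-5p was lower. The log2 fold change was 0.70 (standard error 0.55, unadjusted p = 0.245, adjusted p = 0.645 from limma), with 0.36 when day 5 was left out, 0.37 when day 1 was and 1.09 when day 4 was. miR-125b-1-3p, the least abundant member, had Trim71-/- values of 29.8, 24.9, 16.3, 36.4 and 18.7 and Trim71fl/fl values of 5.66, 10.6, 19.2, 1 and 16.8. Its day 5 pair was the widest and its day 4 pair was reversed, as for miR-100-5p from the same locus and unlike miR-125b-5p. In limma it had the smallest unadjusted p of the members, 0.0709 (adjusted p = 0.607), with a log2 fold change of 1.503 and a standard error of 0.69. With its Trim71fl/fl value of day 5 at the floor, this fold depends on the added 1. It was 0.83 with a pseudocount of 10 and 1.71 with 0.1, and the ratio of the group means before the floor was 2.46. Leaving out day 5 gave 0.82, and leaving out day 4 gave 1.93 with an unadjusted p of 0.0456 (adjusted p = 0.385) from limma. Without day 4 it was past the thresholds, as were 11.3% of all miRNAs (67 of 592).

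The thresholds of the study were a fold change over 1.5 either way and an unadjusted p under 0.05. At these, 0 of 8 members were past in the limma fit, 0 had an unadjusted p under 0.05, and 0 had an adjusted p under 0.05. Over all miRNAs 5.41% (32 of 592) were past these thresholds, 0.845% upwards, and 0% at an adjusted p under 0.05. The exact two-sided permutation test, which exchanges genotypes within days, gave p between 0.188 and 0.5 for the members, where the smallest p that 5 pairs can give is 0.0625. All 8 members had a fitted log2 fold change above 0, as did 51.2% of all miRNAs, and 7 of 8 were higher in Trim71-/- cells on at least 4 of 5 days, as were 27.7% of all. None was higher on all 5 days, against 5.24% of all. The median log2 fold change of the members was 1.27, from 0.38 to 2.10, beside 0.03 over all 592. The median was 0.67 when taken from the ratios of group means of untransformed values, and 0.91 with a pseudocount of 10 in place of 1. Leaving out day 5 gave 0.49, and the pairs of clone E3 alone gave 0.24. Members share seeds and transcripts, so these are not 8 independent counts. Without the replicate block, that is without pairing by day, 2 members were past the thresholds, miR-99a-5p and miR-125b-1-3p, with unadjusted p of 0.0452 and 0.0301 and adjusted p of 0.203 and 0.180 from limma. In that comparison 17.1% of all miRNAs (101 of 592) were past them. The constant same-day sums had already removed the differences between days from the untransformed values, apart from those at the floor. The fit used log2(value + 1), on which the means of the days can still differ.

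**Figure D2:**
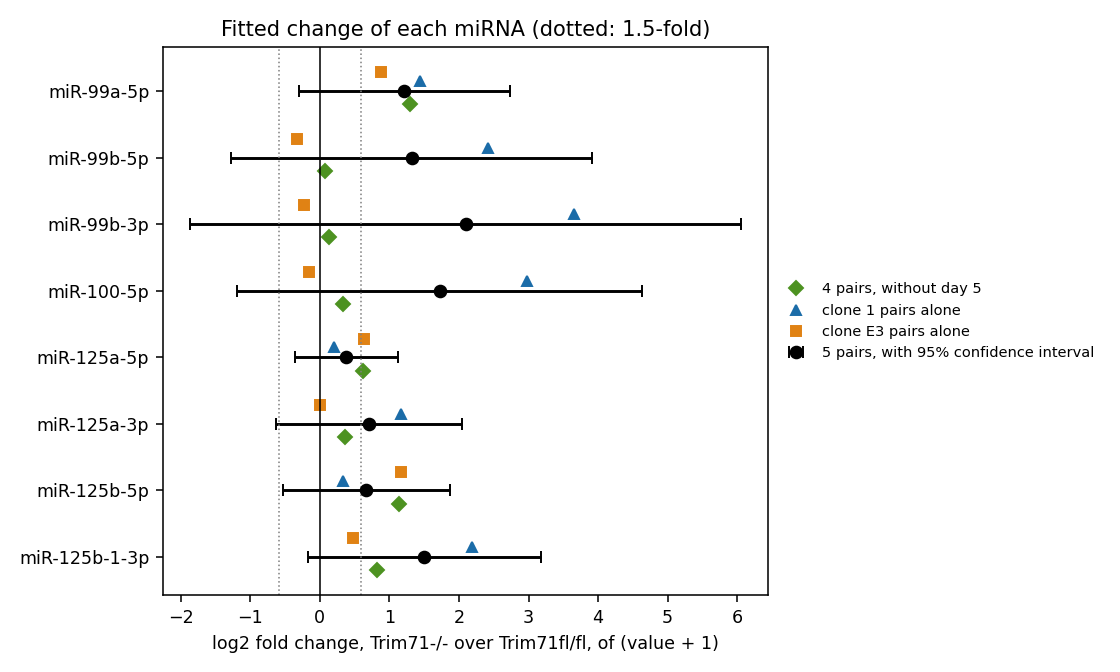
Fitted log2 fold change of value + 1, Trim71-/- over Trim71fl/fl (horizontal axis), of each miRNA over 5 pairs with its 95% confidence interval (black), without the pair of day 5 (green diamonds), in the 3 pairs of clone 1 (blue triangles) and in the 2 pairs of clone E3 (orange squares), with dotted lines at 1.5-fold either way. All 8 intervals include 0, and without day 5 the value of miR-99b-5p falls from 1.32 to 0.08 and that of miR-125b-5p goes from 0.67 to 1.13.

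The members' differences between the genotypes varied from day to day, and they did so by group. On days 1 and 3 all 8 members were higher in Trim71-/- cells, with a median log2 difference of 1.51 and 0.79, where 48.1% and 49.2% of all miRNAs were higher. On day 4, 3 of 8 were higher (miR-99a-5p, miR-125a-5p and miR-125b-5p) and the median was -0.50, beside 50.3% of all miRNAs higher. On day 5, 6 of 8 were higher (49.7% of all), with a median of 3.14, and the exceptions were miR-125a-5p at -0.55 and miR-125b-5p at -1.19. On day 6, 6 of 8 were higher (51.0% of all), with a median of 0.23. The median of all miRNAs stayed between -0.02 and 0.02 on these days.

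Set against the mean of both libraries before the floor, the excess of day 5 was 195% for miR-99b-5p, 206% for miR-99b-3p, 248% for miR-100-5p and 210% for miR-125b-1-3p. A value over 200% means that the Trim71fl/fl value was below 0 before the floor. On the same scale miR-125a-5p was at -37.6% and miR-125b-5p at -78.8%. Higher on days 1, 3, 5 and 6 and lower on day 4 were 4 members and 10.8% of all miRNAs. Higher on days 1, 3, 4 and 6 and lower on day 5 were miR-125a-5p and miR-125b-5p and 3.38% of all miRNAs. In the Trim71fl/fl library of day 5, 21 of the 592 miRNAs were at the floor.

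**Figure D3:**
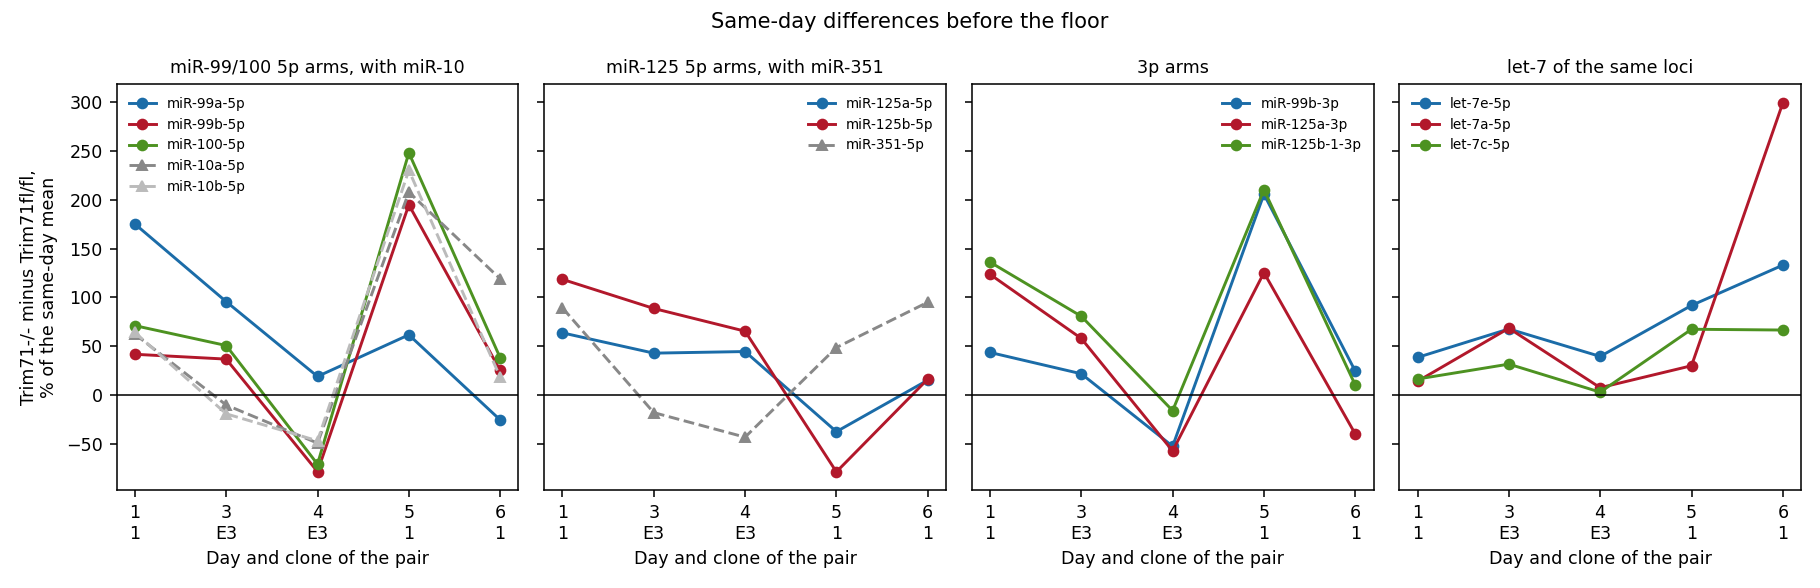
Difference between the same-day libraries, Trim71-/- minus Trim71fl/fl, before the floor and in percent of their mean (vertical axis), by day and clone of the pair (horizontal axis), for the 5p arms of miR-99/100 with miR-10, the 5p arms of miR-125 with miR-351, the 3p arms, and the let-7 miRNAs of the same loci. miR-99b-5p and miR-100-5p peak on day 5 with miR-10a-5p and miR-10b-5p, miR-125a-5p and miR-125b-5p are lowest on that day, and let-7a-5p peaks on day 6.

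The clones were compared by an interaction term. In the 3 pairs of clone 1 the log2 fold change was 2.42 for miR-99b-5p, 2.97 for miR-100-5p and 3.65 for miR-99b-3p, and in the 2 pairs of clone E3 it was -0.33, -0.16 and -0.23. For miR-125a-5p (0.21 in clone 1 and 0.64 in clone E3) and miR-125b-5p (0.33 and 1.17) the larger value was that of clone E3. None of the 8 differences between clones had an unadjusted p under 0.05 in limma (5.57% of all miRNAs did) or an adjusted p under 0.05 (0.169% did). The smallest unadjusted p was 0.216, that of miR-100-5p, with a difference of -3.13 (standard error 2.23). Without day 5 that difference was -0.97, and those of miR-99b-3p and miR-99b-5p went from -3.88 to -0.73 and from -2.75 to -0.82. Those of miR-125a-5p and miR-125b-5p went from 0.43 to 0.055 and from 0.84 to 0.077, and that of miR-125b-5p was 1.65 without day 1. Clone and day are nested, so that day 5, a clone 1 day, and day 4, a clone E3 day, enter this comparison.

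Each locus also makes a let-7. let-7e-5p, between miR-99b and miR-125a, had Trim71-/- values of 775, 870, 779, 949 and 1083 and Trim71fl/fl values of 525, 430, 522, 352 and 218 on days 1, 3, 4, 5 and 6. It was higher in Trim71-/- cells on all 5 days, and its widest pair was that of day 6, not of day 5. let-7c-5p was likewise higher on all 5 days, by a log2 difference of 0.04 on day 4 up to 1.01 on day 5. let-7a-5p was also higher on all 5 days, but its value on day 6 was 7013 in Trim71-/- and at the floor in Trim71fl/fl cells, against a largest difference of 1.03 on the other days. The table holds 19 miRNAs of let-7 and miR-98. All 19 had a fitted log2 fold change above 0, as did 51.2% of all miRNAs. On days 1, 3, 4, 5 and 6 the number of the 19 higher in Trim71-/- cells was 11, 17, 12, 14 and 18. The share of all miRNAs that were higher was 48.1%, 49.2%, 50.3%, 49.7% and 51.0%. The median log2 difference of the 19 was 5.39 on day 6 and between 0.05 and 0.68 on the other days. Of the 19, 1 (let-7e-5p, unadjusted p = 0.0137, adjusted p = 0.607 from limma) passed both thresholds, as did 5.41% of all miRNAs. In the Trim71fl/fl library of day 6, 16 of the 19 were at the floor, as were 24 of all 592 miRNAs. The members had no value at the floor on that day.

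Each member was then set against the let-7 miRNA of its locus within the same library. For miR-99b-5p over let-7e-5p the log2 ratio changed by 0.05, -0.48, -1.77, 4.85 and -1.95 on days 1, 3, 4, 5 and 6, with a mean of 0.14 ± 2.76 (SD, n = 5). For miR-125a-5p over let-7e-5p, encoded within the same 692 bases, it changed by 0.39, -0.39, 0.08, -1.98 and -2.09, with a mean of -0.80 ± 1.16 (SD, n = 5). Both ratios were thus lower in Trim71-/- cells on day 6, and on day 5 they went in opposite directions. For miR-99a-5p over let-7c-5p the mean change was 0.67 ± 1.83 (SD, n = 5) and for miR-125b-5p over let-7c-5p it was 0.12 ± 1.58 (SD, n = 5). The ratios to let-7a-5p had means between -2.04 and -0.99, and on day 6, with let-7a-5p at the floor in Trim71fl/fl cells, changes between -11.6 and -11.2. Over the 9 ratios, the exact two-sided permutation within days gave p between 0.375 and 0.938 (adjusted p = 0.938 for each), and 4 of 9 mean changes were above 0. Leaving out a pair moved that count to 2 (day 1 or 5), 3 (day 3 or 4) or 8 (day 6).

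**Figure D4:**
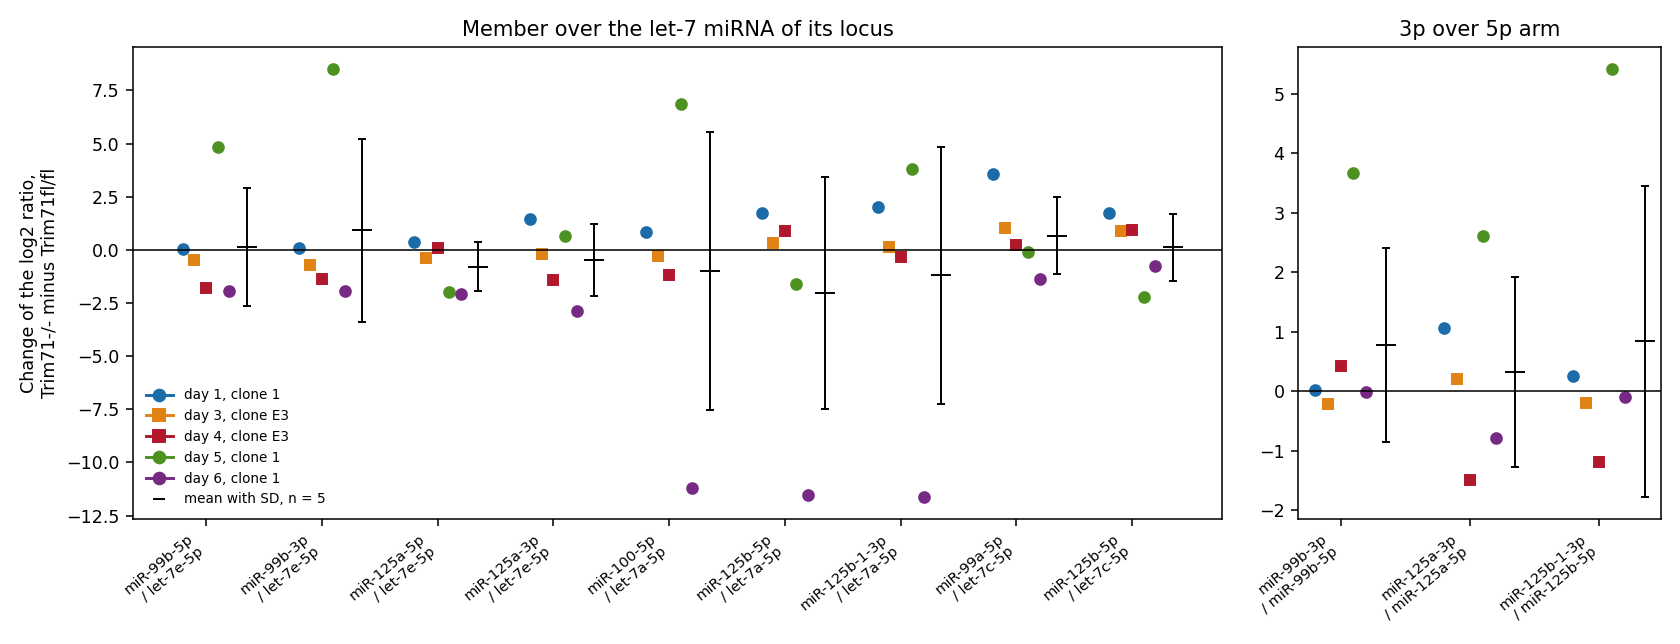
Change of the log2 ratio, Trim71-/- minus Trim71fl/fl (vertical axes), of each member to the let-7 miRNA of its locus (left, 9 ratios) and of the 3p to the 5p arm (right, 3 ratios), with 1 point a day, circles for clone 1, squares for clone E3, and black bars for the mean with SD (n = 5). Every mean lies within 1 SD of 0, and on the left the points farthest from 0 are those of day 6 for the 3 ratios to let-7a-5p.

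The 3p arm was compared with the 5p arm of the same hairpin. Within Trim71-/- libraries the log2 ratio of miR-99b-3p to miR-99b-5p was steady, at -3.11 ± 0.14 (SD, n = 5). In Trim71fl/fl libraries it was -3.88 ± 1.63 (SD, n = 5), and on day 5, with the 3p arm at the floor, it was -6.79 against -3.29 to -3.02 on the other days. The ratio of miR-125a-3p to miR-125a-5p changed by 1.07, 0.21, -1.48, 2.61 and -0.79 on days 1, 3, 4, 5 and 6. That of miR-125b-1-3p to miR-125b-5p, of which the latter has a further source in Mir125b-2, changed by 0.26, -0.21, -1.19, 5.42 and -0.10. The mean changes were 0.78 ± 1.63, 0.32 ± 1.60 and 0.84 ± 2.62 (SD, n = 5). The exact two-sided permutation within days gave p of 0.375, 0.688 and 0.812 (adjusted p = 0.812 for each). When day 5 was left out the mean changes were 0.054, -0.25 and -0.31.

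The miRNAs whose 5 same-day log2 differences were most like those of a member were found by the root mean square difference over the 5 days. On this scale a value at the floor sets the size of its difference, so ranks by the percent differences before the floor are given as well. Of 591 other miRNAs, miR-100-5p was the nearest to miR-99b-5p, at 0.52, and miR-99b-5p ranked 2 from miR-100-5p. By percent differences these ranks were 8 and 3, and miR-99b-3p, of the same hairpin as miR-99b-5p, ranked 2 from it (26 by log2 differences). Outside the members, the nearest to miR-100-5p were miR-3074-2-3p at 0.44 and miR-10b-5p at 0.53, and those to miR-99b-5p were miR-27a-5p at 0.63 and miR-3074-2-3p at 0.65. miR-10a-5p had 382, 276, 219, 594 and 465 in Trim71-/- and 200.5, 306, 363, 1 and 118 in Trim71fl/fl cells on days 1, 3, 4, 5 and 6, and so was also at the floor on day 5. miR-10b-5p, with 394 on day 5 in Trim71-/- cells, was at the floor in its partner as well. From miR-99b-5p, the miRNAs of the same locus miR-125a-5p and let-7e-5p ranked 335 and 124 of 591 by log2 differences and 312 and 157 by percent differences.

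Seen from miR-125b-5p, miR-125a-5p ranked 3 at 0.64, after the nearest miRNAs outside the members, miR-19a-5p at 0.51 and miR-31-5p at 0.58. From miR-125a-5p, miR-125b-5p ranked 63 of 591 (39 by percent differences), and the nearest were miR-450b-3p at 0.20 and miR-877-3p at 0.28. miR-351-5p, with the same seed, ranked 199 of 591 from miR-125b-5p (223 by percent differences). Its Trim71-/- values were 315, 198, 171, 271 and 321 and its Trim71fl/fl values 120, 237, 265, 165 and 114, so that it was lower in Trim71-/- cells on days 3 and 4 and higher on day 5. From miR-99a-5p, miR-100-5p ranked 499 and miR-99b-5p 471 of 591 by log2 differences, and 249 and 184 by percent differences, and the nearest were miR-181a-1-3p at 1.03 and miR-194-2-3p at 1.05. Of the members with other seeds, miR-125a-3p ranked 5 from miR-99a-5p by log2 differences (2 by percent differences) and miR-125b-5p, made in part from the same locus, 9 (27). miR-125a-5p ranked 20 (30), miR-125b-1-3p 66 (23) and miR-99b-3p 553 (186). let-7c-5p, the let-7 partner of miR-99a-5p, ranked 100 (92). A shared seed thus went with a like course over days in some pairs of miRNAs and not in others. All these miRNAs were measured in the same 10 libraries, so that likeness is a description.

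Markers of other cells were read in the same libraries. The 10 mES cell miRNAs of the miR-290 to miR-295 and miR-302 and miR-367 clusters were all in the table and held 23.6% to 39.2% of a library, so the cells carried the miRNAs of their label. miR-99/100 and miR-125 are also made by fibroblasts and neural cells. Of 10 fibroblast miRNAs 8 were in the table, and miR-214-3p and miR-214-5p were not. Their sum was 13640 to 35538 in Trim71-/- and 13413 to 35331 in Trim71fl/fl libraries, with the Trim71-/- sum higher on 4 of 5 days, and was led by miR-143-3p. miR-143-3p had the directions of miR-99b-5p on all 5 days (log2 differences of -1.46 on day 4 and 1.45 on day 5). The other 7 did not share them: all were higher in Trim71-/- cells on day 4 (0.78 to 6.17), and on day 5 they lay between -0.47 and 0.44. Of 7 neural miRNAs 5 were in the table, and miR-137-3p and miR-219-5p were not. Their sum was 5865 to 9138 in Trim71-/- and 3354 to 6628 in Trim71fl/fl libraries. On 4 of 5 days it was higher in Trim71-/- cells, and miR-9-5p (2.46 on day 5) and miR-128-3p (1.07) again had the directions of miR-99b-5p. The remaining 3 did not: miR-124-3p was at 1.36 on day 4 and -1.54 on day 5, miR-9-3p at 2.71 and -0.32, and miR-124-5p at 3.83 and 0.30. Among the mES cell miRNAs, miR-292-3p and miR-293-3p also had the directions of miR-99b-5p, and the others did not. miR-292-3p was at -0.75 on day 4 and 1.515 on day 5, and miR-293-3p at -0.10 and 0.25. Those directions were shared by 10.8% of all miRNAs (64 of 592). Over 5 pairs all 5 neural miRNAs had a fitted log2 fold change above 0 (median 0.64). So did 6 of the 8 fibroblast miRNAs (median 0.15), 4 of the 10 mES cell miRNAs (median -0.14) and 51.2% of all miRNAs. Of these lists 0 miRNAs were past the thresholds of the study, where 5.41% of all miRNAs (32 of 592) were. According to the study's methods, the mES cells were kept on gelatin, in medium conditioned by fibroblasts. The part of fibroblasts and neural cells in the members' differences was not tested.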

How the data were processed

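The deposited table gives 1 signal per mature miRNA and library. According to the study's methods, small RNA libraries were sequenced, reads were trimmed after CASAVA 1.8, aligned with Bowtie2 2.2.1 to mm10 with miRBase annotation and counted in Partek 6.6. The authors normalised the counts (DESeq2), applied a batch correction, raised values under 1 to 1 and removed miRNAs below 10, so the deposited signal is not a whole count and its depth is unknown. All 11 columns were read. In 8 of 8 members the value of day 2 equalled, within 0.1%, the average of the remaining Trim71fl/fl values as they were before the floor, and this library was left out of all comparisons.

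The 5 pairs were compared with limma 3.58.1 in R 4.3.3 on log2(value + 1), fitting a genotype effect and a day effect, with Benjamini-Hochberg adjustment over 592 miRNAs. A model on log-transformed values was used because no whole counts are given. Pairs come from the labels, which give a day and clone to each library. Same-day deviations correlated between -0.65 and -0.41 over miRNAs, which the constant sums impose. Ratios were tested by exact permutation within days (32 sign patterns), adjusted over 9 or 3 ratios. The members, partners, lists and named miRNAs (all members, let-7 of their loci, miR-10, and the 2 nearest in course to each 5p arm) were chosen with earlier results of these data known. miR-351-5p was added for its seed after its values had been seen, and single list miRNAs were likewise chosen after their values were seen. The fit was tested on simulated data. Alternatives were the fit without the block, each pair left out, each clone alone, 2 other scalings, pseudocounts of 0.1 and 10, untransformed values, values before the floor, limma's trend option and keeping only miRNAs averaging 100 or more. The fit without days 5 and 6 was added after the data were examined. Sequences are from RefSeq (GRCm38.p6) and positions from GENCODE M21. Python 3.11.15, pandas 2.3.3 and matplotlib 3.10.9 made tables and plots.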

Additional observations from a re-analysis of the deposited data

How the results depend on the processing

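The count of 0 members past the thresholds was also 0 under both scalings, both pseudocounts, untransformed values with and without the floor, limma with trend, the filter (which left 5 members) and each clone alone. It was 2 without the replicate block, and 1 (miR-125b-5p, log2 fold change 1.43) without the pairs of days 5 and 6, chosen after seeing the data. Leaving out 1 pair gave 0 to 1, the 1 being miR-125b-1-3p without day 4 or miR-125b-5p without day 5, and a median log2 fold change of the members of 0.49 to 1.69. Over all miRNAs 101 in place of 32 were past the thresholds without the block, 50 when libraries were divided by their totals, 59 in clone 1 alone, 67 without day 4, 16 without day 1, 30 without day 5, 19 without day 6 and 16 without days 5 and 6, and the block changed no other call of a member.

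Dividing by totals lowered the median of all miRNAs from 0.03 to -0.24 and that of the members from 1.27 to 1.00, with 8 of 8 still above 0. No member rose, and miR-125a-5p went from 0.38 to 0.11, miR-125b-5p from 0.67 to 0.40 and miR-125a-3p from 0.70 to 0.44. Of 133 refitted log2 fold changes of members 124 kept direction and call and 4 reversed: miR-99b-5p (-0.33), miR-99b-3p (-0.23) and miR-100-5p (-0.16) in clone E3 alone, and miR-99b-5p (-0.016) without days 5 and 6. The cause was not tested.

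Ratios to let-7 had 2 to 8 of 9 means above 0, and arm ratios 1 to 3 of 3, when 1 pair was left out. The ranges were -2.95 to 1.57 (miR-100-5p over let-7a-5p), -2.46 to 1.40 (miR-125b-1-3p over let-7a-5p), -2.99 to 0.33 (miR-125b-5p over let-7a-5p), -1.09 to -0.47 (miR-125a-5p over let-7e-5p, the only ratio to let-7 with 1 sign throughout), -0.96 to 0.13 (miR-125a-3p over let-7e-5p), -0.98 to 1.64 (miR-99b-3p over let-7e-5p), -1.04 to 0.66 (miR-99b-5p over let-7e-5p), -0.054 to 1.17 (miR-99a-5p over let-7c-5p), -0.28 to 0.70 (miR-125b-5p over let-7c-5p), 0.054 to 1.03 (miR-99b-3p over miR-99b-5p), -0.25 to 0.77 (miR-125a-3p over miR-125a-5p) and -0.31 to 1.34 (miR-125b-1-3p over miR-125b-5p). At an adjusted p under 0.05 from limma, the difference between clones was called for 0 of 8 members throughout. Without day 6 that of miR-125b-1-3p was -2.75 (unadjusted p = 0.0466, adjusted p = 0.583 from limma). That of miR-99a-5p ran from -1.47 to 0.60. With 5 pairs, permutation could not reach 0.05. The depth is unknown, and the precision rests on the pairs alone.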
